A study of Mus musculus with 11 samples.

Results

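The 10 genes described here encode alpha subunits of heterotrimeric G proteins: Gnaq, Gna11 and Gna14 of the Gq/11 family, Gna12 and Gna13 of the G12/13 family, Gnai1, Gnai2, Gnai3 and Gnao1 of the Gi/o family, and Gnas of the Gs family. They were taken by gene name from the annotation carried by the array files, which gave 16 of the 55681 probes on the array and 10 of its 36413 gene names. The array was an Agilent 8x60K one-colour design with 60-base probes. The 11 arrays were of mouse descending aorta, all from male C57BL/6 mice aged 20 months: 5 from old nitrate treated mice, which had 1 g/L NaNO3 in the drinking water for 8 weeks, and 6 from old control mice. The labels of the control arrays name no agent and call them a re-analysis of earlier arrays, while the study's methods describe NaCl at an equal concentration as the control, so it is not settled here what the control mice drank. The labels place each RNA in 1 individual mouse, and a sixth nitrate array was not analysed here. The aortas had been flushed and cleaned of fat before RNA was extracted, and the comparison asks which transcripts differ in the old vessel after nitrate.

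A G protein alpha subunit binds GDP at rest and exchanges it for GTP when a receptor of the seven-transmembrane class is activated, after which alpha and the beta-gamma pair act on separate effectors. In the vessel wall, Gq and G11 couple angiotensin, endothelin, thromboxane and adrenergic alpha 1 receptors to phospholipase C beta and calcium release. G12 and G13 also act on contraction, Gs raises cyclic AMP and relaxes smooth muscle, and Gi lowers cyclic AMP. Regulator of G protein signalling (RGS) proteins speed up the hydrolysis of GTP and end the signal.

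The sequences of 2 probes are shown, because each reads a coding stretch that is informative about the subunit: the Gna13 probe spans codons of the guanine-binding motif that all G proteins share, and the Gnao1 probe belongs to variant B, one of a pair of Go alpha transcripts that differ in their last coding exons.
Gna13: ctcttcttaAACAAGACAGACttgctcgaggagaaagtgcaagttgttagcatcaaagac
Gnao1 variant B: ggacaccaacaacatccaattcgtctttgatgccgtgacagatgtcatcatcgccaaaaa
Capitals mark 12 bases that fit the codon pattern of that motif, starting at base 10 of the Gna13 probe, and none are used in the Gnao1 probe. In each probe 1 reading frame held no stop codon. The pattern occurred on the printed strand in 232 of the 55681 probes (0.417%). In the mm9 build, the Gna13 probe lies at chr11:109257528-109257587 and the Gnao1 probe at chr8:96480068-96480127, both on the plus strand.

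A probe was counted as detected when, in 5 or more arrays of a group, the scanner software found its spot and flagged it as well above background. By this rule 23633 probes and 18294 gene names were detected, among them 11 of the 16 G alpha probes, which stood for 8 of the 10 genes. Gnaq and Gna14 fell outside the rule, Gna14 because its signal was dim and Gnaq because its spot was marked as found on 2 of 5 nitrate and 4 of 6 control arrays, although it was well above background on every array. Levels below are log2 of the quantile-normalized signal of a probe, and differences are nitrate minus control with their standard error (SE) from limma. No level is set against the level of another probe, since probes differ in how brightly they label. A probe was called changed at an unadjusted limma P value under 0.05 together with a fold change above 1.2, which is 0.26 on the log2 scale.

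In the comparison of old nitrate treated mice with old controls, none of the 11 detected G alpha probes was called, beside 9.00% of all detected probes, divided into 4.16% higher and 4.85% lower with nitrate. None reached an unadjusted P value under 0.05, beside 14.4% of detected probes. The smallest P value adjusted over all detected probes by Benjamini-Hochberg was 0.436, and 3 probes of the whole array (0.0127%) were below 0.05 after adjustment, none of them a G alpha probe. For 8 of the 11 probes the whole 95% interval of the difference lay inside 1.2-fold in either direction, which was so for 26.7% of all detected probes. The intervals of the Gna12 probe, the Gnai2 probe and 1 Gnas probe, with a difference of 0.44, passed that limit. Counted by gene with the brightest detected probe, the interval lay inside that limit for 6 of 8 genes, beside 27.9% of all detected gene names. The median difference of the 8 genes was 0.04, beside 0.02 over all detected names, and their median spread within groups was an SD of 0.11, beside 0.18. The values over all names were not matched to the signal level of the G alpha genes. In none of the 11 detected probes did the groups fail to overlap, beside 2.75% of all detected probes. In the G alpha probes outside the detection rule the groups overlapped too. Since vessel tissue of mixed cells was measured, fewer cells of a type and less RNA per cell cannot be told apart.

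**Figure D1:**
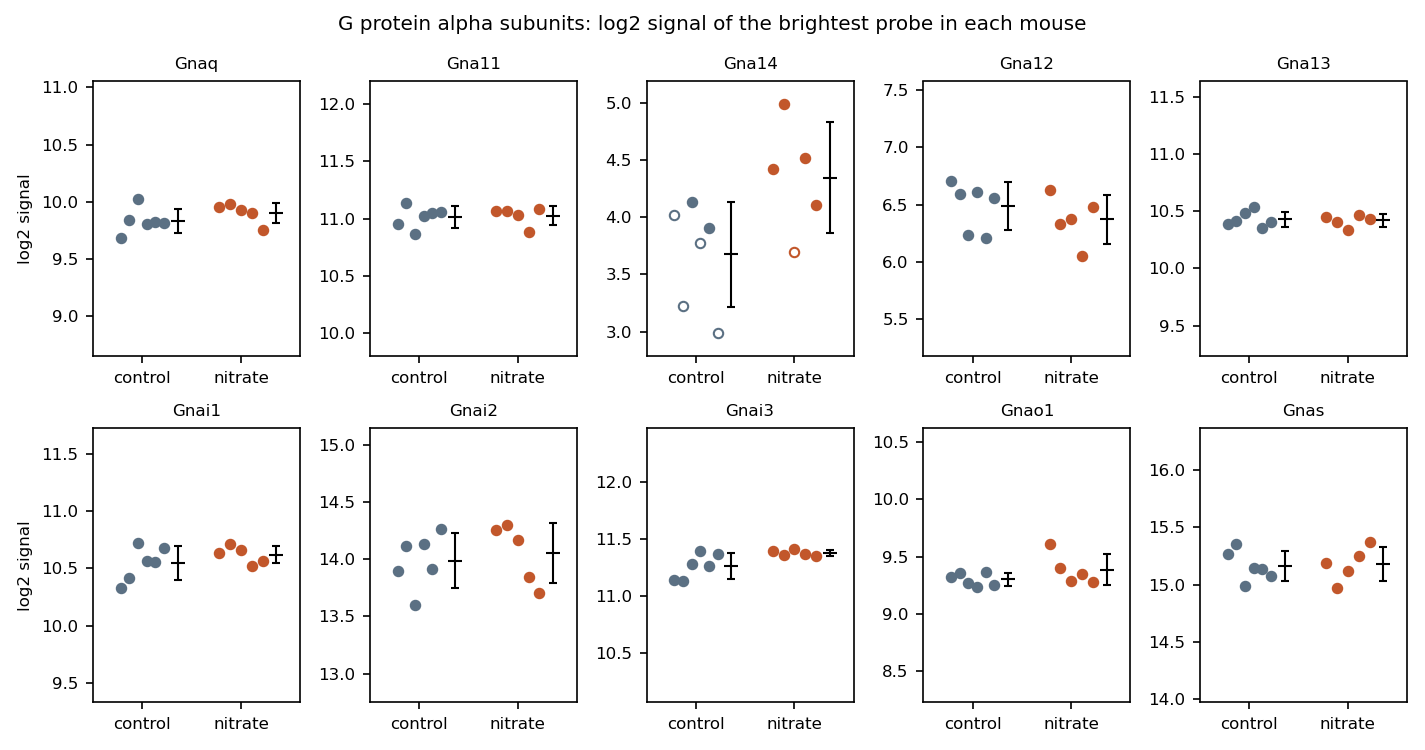
Log2 signal of the brightest probe of each of the 10 G alpha genes in each mouse, with 6 control mice in grey and 5 nitrate mice in orange. Open points were not well above background, bars are the mean and SD, and every panel spans the same height on the log2 axis, but the panels start at different levels. The nitrate and control points overlap in every panel, and Gna14 has the widest scatter.

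In the Gq/11 family, Gnaq and Gna11 encode the widely expressed subunits that carry most vasoconstrictor signals to phospholipase C beta. Gna11 (chr10:80991671-80991730, minus strand) measured 11.07, 11.06, 11.03, 10.88 and 11.08 in the nitrate mice and 10.95, 11.13, 10.86, 11.02, 11.04 and 11.06 in the controls. The lowest values of the groups, 10.88 and 10.86, lay side by side, and so did the highest, 11.08 and 11.13. The difference was 0.01 (SE 0.07, 95% interval -0.13 to 0.16, adjusted P value 0.957, limma). Gnaq (chr19:16461861-16461920, plus strand) measured 9.95, 9.98, 9.92, 9.90 and 9.76 in the nitrate mice and 9.68, 9.84, 10.02, 9.81, 9.82 and 9.82 in the controls. In the nitrate group 4 values lay above 5 of the controls, but the highest value of all belonged to a control. The difference was 0.07 (SE 0.07, 95% interval -0.08 to 0.22, adjusted P value 0.824 in a limma fit over all probes, exact permutation P value 0.262, two-sided). Unnormalized intensities of the Gnaq probe ran from 714 to 1211.

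Gna14, a Gq-like subunit with a narrower tissue range, is encoded on chromosome 19 beside Gnaq, with 223.336 kb between the probes of the genes. Its probe (chr19:16685197-16685256, plus strand) was dim, at intensities of 6.6 to 31.7, and was well above background in 4 of 5 nitrate and 2 of 6 control mice. Its spot was both found and well above background in 2 of 5 nitrate and 2 of 6 control mice. In nitrate mice 4 and 5 the spot was not marked as found. The log2 levels were 4.43, 4.99, 3.69, 4.52 and 4.11 in the nitrate mice and 4.02, 3.23, 4.13, 3.78, 3.90 and 2.99 in the controls. In the nitrate group 3 mice lay above every control, and the lowest nitrate mouse lay below 4 of the 6 controls. The difference was 0.67 (SE 0.27, 95% interval 0.08 to 1.27), with most controls not well above background, an unadjusted limma P value of 0.0307 and an adjusted P value of 0.545 in a fit over all probes, of which 0.00180% were below 0.05 after adjustment. The exact two-sided permutation test over the 462 divisions of the mice gave a P value of 0.0519, where the smallest possible value is 0.00216. Gna14 was the only one of the 10 genes that met the calling thresholds, beside 5.79% of all 55681 probes and 4.19% of the 32048 probes outside the detection rule. The difference was 0.34 with an offset of 16, and with normexp background correction it was 0.16 and the call was lost, and it was also lost with the replicate block (0.53) and on leaving out nitrate mouse 1, 2 or 4 or control mouse 2 or 6, with differences from 0.51 to 0.84 over the 11 omissions. The study listed Gna14 from these same mice, so its direction here is not independent evidence.

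**Figure D2:**
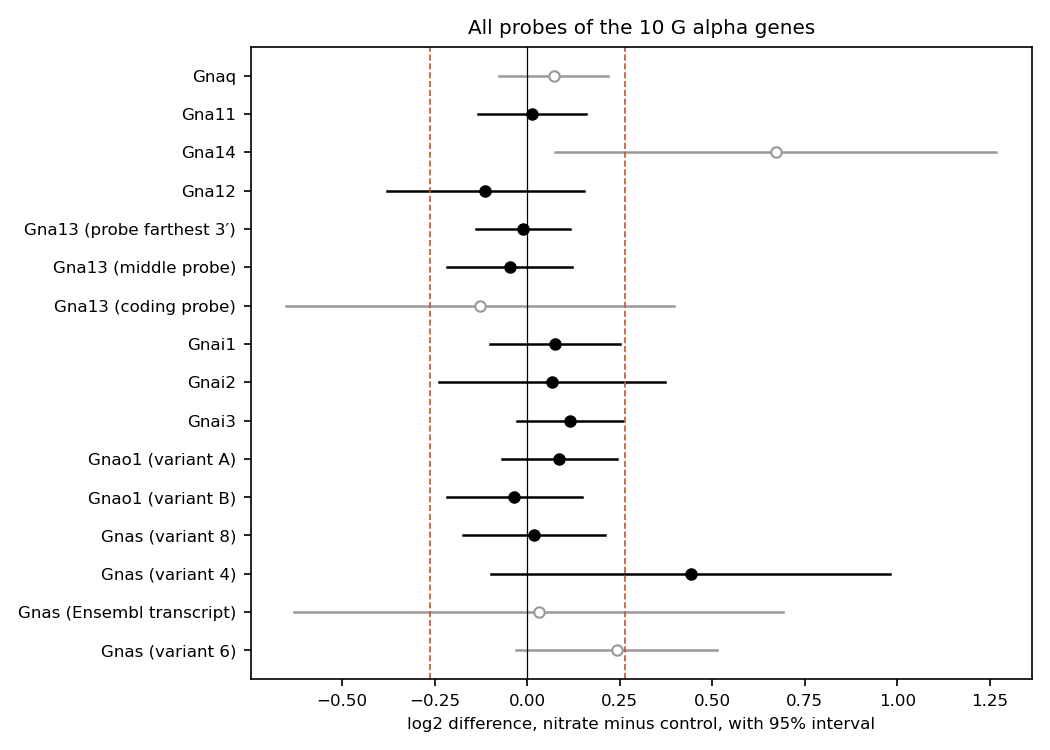
Difference in log2 signal, nitrate minus control, for all 16 G alpha probes with its 95% interval; filled points are the 11 detected probes and open grey points the 5 outside the detection rule. Dashed lines mark a 1.2-fold change in either direction. Most intervals of detected probes lie between the dashed lines, and only that of Gna14 lies wholly on one side of 0.

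In the G12/13 family, Gna12 (chr5:141235999-141236058, minus strand) measured 6.63, 6.33, 6.38, 6.05 and 6.48 in the nitrate mice and 6.70, 6.60, 6.23, 6.61, 6.21 and 6.56 in the controls. The groups overlapped over most of their range, with the lowest value in a nitrate mouse. The difference was -0.11 (SE 0.12, 95% interval -0.38 to 0.15, adjusted P value 0.705, limma), so a fall of more than 1.2-fold was not outside its interval. It was -0.03 without nitrate mouse 4, -0.18 without nitrate mouse 1, and -0.07 without control mouse 1 or with normexp. Gna13 had 3 probes. The one farthest 3′ (chr11:109262286-109262345, plus strand) measured 10.45, 10.41, 10.33, 10.47 and 10.43 in the nitrate mice and 10.39, 10.42, 10.48, 10.54, 10.35 and 10.41 in the controls, with the groups overlapping throughout, and differed by -0.01 (95% interval -0.14 to 0.12). The middle probe (chr11:109261445-109261503) differed by -0.05 (95% interval -0.22 to 0.12). The coding probe printed above was well above background in 0 of 5 nitrate and 2 of 6 control mice, with measured means of 4.28 and 4.41. No fold is given for it, and its adjusted P value was 0.925 in the limma fit over all probes.

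In the Gi/o family, Gnai1, Gnai2 and Gnai3 encode the inhibitory subunits of adenylyl cyclase, and each had 1 detected probe. Gnai3 (chr3:107910599-107910658, minus strand) showed a difference of 0.11 (SE 0.07, 95% interval -0.03 to 0.26, adjusted P value 0.442, limma; exact permutation P value 0.0519). Its nitrate levels were 11.40, 11.36, 11.41, 11.37 and 11.35, and its control levels were 11.14, 11.13, 11.28, 11.39, 11.26 and 11.37. The 5 nitrate mice were tightly grouped (SD 0.02) at the top of the wider control range (SD 0.11), and 4 controls lay below all of them. With slide as a block, the Gnai3 difference was 0.13 with an unadjusted P value of 0.0381, still below 1.2-fold. Gnai1 (chr5:17771077-17771136, minus strand) measured 10.64, 10.71, 10.66, 10.52 and 10.57 in the nitrate mice and 10.33, 10.42, 10.72, 10.57, 10.56 and 10.68 in the controls, the lowest pair of values being the controls of slide 1. The difference was 0.07 (95% interval -0.10 to 0.25, adjusted P value 0.704, limma).

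Gnai2 (chr9:107516892-107516951, minus strand) measured 14.26, 14.30, 14.17, 13.85 and 13.71 in the nitrate mice and 13.90, 14.12, 13.60, 14.14, 13.91 and 14.27 in the controls. The 3 lowest values came from slide 3, which held mice of both groups. The difference was 0.07 (SE 0.14, 95% interval -0.24 to 0.37, adjusted P value 0.869, limma), the widest interval of the family, and a rise above 1.2-fold was not outside it. Gnao1, best known from neurons, where Go alpha is abundant, had a probe for each of 2 transcripts. The variant A probe (chr8:96493228-96493287, plus strand) measured 9.61, 9.40, 9.29, 9.35 and 9.28 in the nitrate mice and 9.32, 9.35, 9.27, 9.24, 9.37 and 9.25 in the controls, with 1 nitrate mouse above the rest. It differed by 0.09 (95% interval -0.07 to 0.24, adjusted P value 0.609, limma), and by 0.03 without nitrate mouse 1. The variant B probe, whose sequence is printed above, differed by -0.03 (95% interval -0.22 to 0.15), so neither transcript was called.

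Gnas encodes Gs alpha, which stimulates adenylyl cyclase downstream of beta adrenergic and prostacyclin receptors, and its imprinted locus gives several transcripts from different promoters that share their 3′ exons. The probe farthest 3′, annotated to transcript variant 8 (chr2:174171933-174171992, plus strand), measured 15.19, 14.97, 15.12, 15.25 and 15.37 in the nitrate mice and 15.27, 15.36, 14.99, 15.15, 15.13 and 15.07 in the controls. Both groups covered almost the same range, and the difference was 0.02 (SE 0.09, 95% interval -0.17 to 0.21, adjusted P value 0.954, limma). The probe annotated to variant 4 (chr2:174163501-174163560) measured 5.49, 4.91, 5.44, 6.14 and 6.29 in the nitrate mice and 5.70, 5.56, 5.10, 4.75, 5.18 and 4.98 in the controls. The 2 nitrate mice of slide 3 were the highest of all, while the other nitrate mice lay within the control range. The difference was 0.44 (SE 0.25, 95% interval -0.10 to 0.98, adjusted P value 0.436, limma; exact permutation P value 0.149), and it met the calling thresholds only when nitrate mouse 2 was left out (0.63). It was 0.28 without nitrate mouse 5 and 0.20 with normexp background correction. The probe of an Ensembl transcript (chr2:174122337-174122396) was well above background in 1 of 5 nitrate and 3 of 6 control mice, and no fold is given for it. The variant 6 probe (chr2:174125482-174125541) was not well above background in any of the 11 mice, so no fold is given for it.

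**Figure D3:**
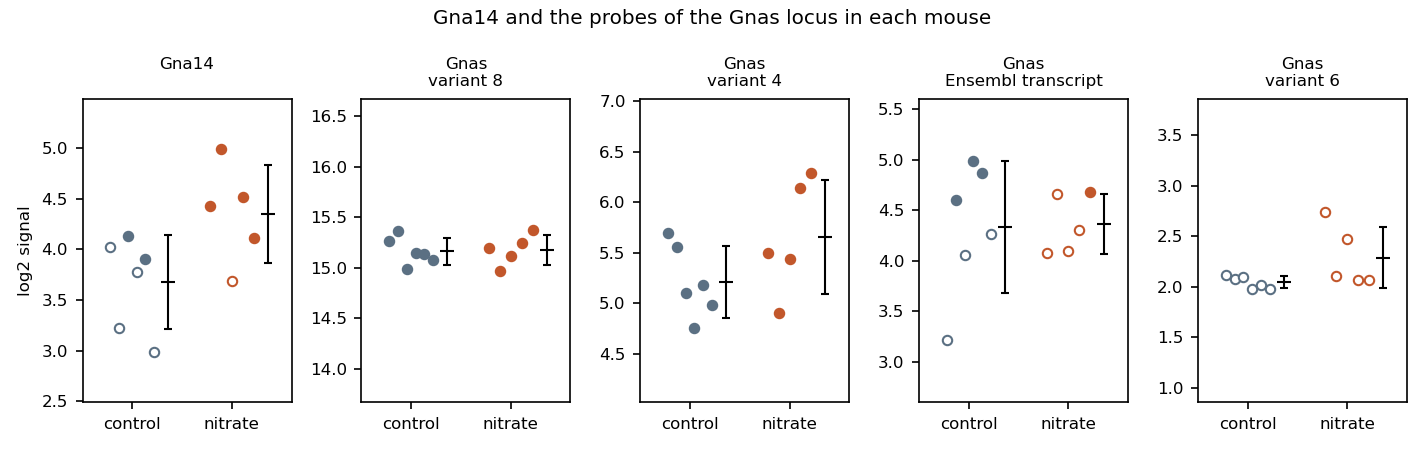
Log2 signal of the Gna14 probe and the 4 Gnas probes in each mouse, controls in grey and nitrate in orange, filled where well above background and open where not, with the mean and SD. Each panel spans 3 log2 units from its own start. The variant 8 probe is tight in both groups, Gna14 and variant 4 scatter more widely, and the variant 6 probe is open throughout.

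The arrays lay on 3 slides, each with mice of both groups, and slide 2 held a single nitrate mouse. Within slides, 2 of the 10 genes kept 1 direction on all 3, Gna14 with differences of 1.08, 0.31 and 0.30 and Gnai3 with 0.24, 0.03 and 0.09. Gna14 was not well above background in any mouse of slide 2 or in the controls of slide 1. Its direction on slide 2 therefore cannot be read as a difference between measured signals. On slide 1, 8 of the 10 genes were higher in nitrate, against 6 on slide 2 and 7 on slide 3. The 3′ Gnas probe ran from -0.23 on slide 1 through 0.01 to 0.25 on slide 3, and the variant 4 probe from -0.43 through 0.57 to 1.07. Gnai1 went the other way, from 0.30 through 0.04 to -0.09. All 6 control arrays occupied 1 column of the slides, which held no nitrate array, so the effect of that position and of treatment cannot be told apart.

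**Figure D4:**
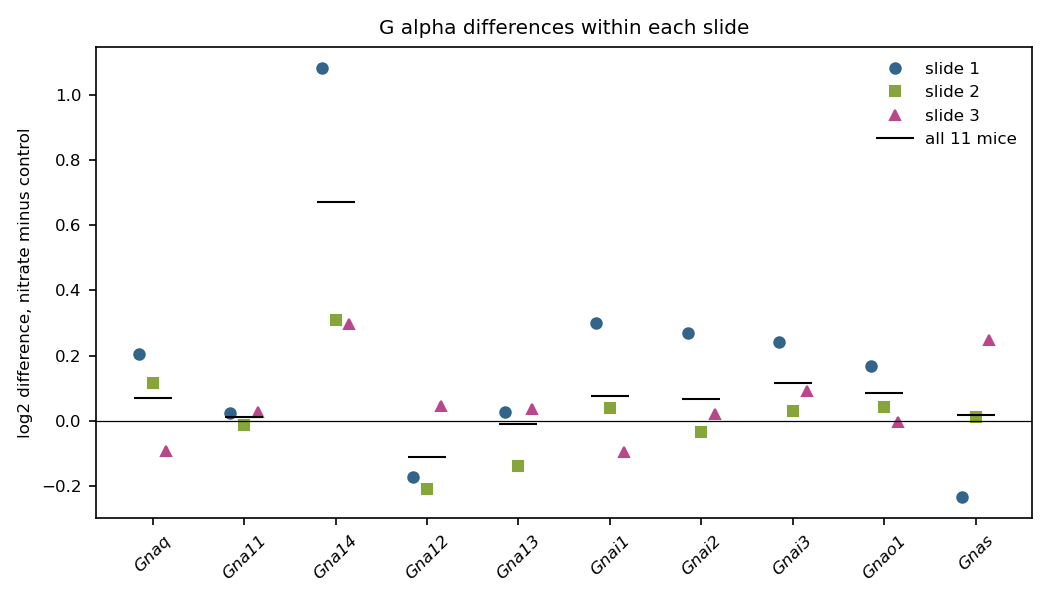
Difference in log2 signal, nitrate minus control, for the brightest probe of each G alpha gene within slide 1 (circles), slide 2 (squares) and slide 3 (triangles), with a bar for all 11 mice. Slide 2 has 1 nitrate mouse. Gna14 and Gnai3 are above 0 on all 3 slides, and Gnas moves from below to above 0. No mouse of slide 2 had Gna14 well above background.

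Outside the 10 genes, 6 further alpha subunit genes were on the array. Gna15, a Gq-type subunit of blood cells whose probe lies 20.985 kb from that of Gna11, differed by -0.02. Gnal, the olfactory relative of Gs alpha, differed by 0.29, and Gnaz, an inhibitory relative, by 0.23, and neither was called (adjusted P values 0.857 and 0.508, limma). The transducins Gnat1 and Gnat2 and the related Gnat3 were not detected. Each lies beside a Gi gene, with 60.131 kb between the probes of Gnai2 and Gnat1, 6.523 kb between those of Gnai3 and Gnat2 and 245.709 kb between those of Gnai1 and Gnat3. The counts of called beta and gamma subunits stand beside 8.89% of all detected gene names. Of the beta subunits, 3 of 5 were detected and 0 called, with Gnb1 at -0.16, Gnb2 at 0.05 and Gnb4 at 0.16. Of the gamma subunits, 9 of 12 were detected and 1 was called, Gngt2, which was 0.29 lower in nitrate (difference -0.29, adjusted P value 0.320, limma). Its call was lost with 75th percentile scaling, with the replicate block, and without nitrate mouse 1 or 2 or control mouse 1, 2 or 3.

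Among proteins that act on the alpha subunits, none of the 12 detected genes of the RGS list was called, beside 8.89% of all detected gene names. Their median difference was 0.03, with a range of -0.35 to 0.20. Rgs12 and Rgs14 were not in this list but with the GoLoco proteins, and 1 of 3 detected Rgs12 probes was called, at 0.46. Of 9 detected chaperones and GoLoco proteins, which fold alpha subunits or hold them in the GDP state, 1 was called by its brightest probe. It was Gpsm1, an activator of G protein signalling that binds Gi alpha, with a difference of 0.32 (SE 0.12, adjusted P value 0.290, limma). Its call was lost with normexp background correction, with detection asked on all 11 arrays, and without nitrate mouse 2 or 5 or control mouse 6.

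Among effectors, the called genes were 1 of 6 for Gq, 0 of 7 for G12/13 and 1 of 7 for Gs and Gi. The share called over all detected gene names was 8.89%. Plcb4, a phospholipase C beta that Gq activates, was higher in all 5 nitrate mice than in any control (12.56 ± 0.12, SD, n = 5, against 12.11 ± 0.27, n = 6; difference 0.45, adjusted P value 0.182, limma), although only 1 of its 3 detected probes was called and they ranged from 0.24 to 0.45. Adcy7, an adenylyl cyclase that Gs alpha and beta-gamma stimulate, was likewise higher without overlap (11.38 ± 0.12, SD, n = 5, against 10.87 ± 0.22, n = 6; difference 0.51, adjusted P value 0.118, limma). The 6 subunits of the cyclic AMP dependent kinase had a median of -0.11, and none was called.

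The receptor counts stand beside 8.89% of all detected gene names called. The study had listed F2r, Adra1a, Oxtr, Ednrb, Adrb3, Ptger3, Plcb4 and Adcy7 from these same mice, so their calls are not independent evidence. Of 17 detected Gq coupled receptors 4 were called, with 1 higher and 3 lower in nitrate. F2r, the thrombin receptor, was higher without overlap between groups (difference 0.38, SE 0.08, adjusted P value 0.121, limma), while Adra1a, an alpha 1 adrenergic receptor, differed by -0.59, Oxtr, the oxytocin receptor, by -0.50 and Ednrb, an endothelin receptor, by -0.29. F2r and Adra1a kept their call in all 11 omissions of a mouse, Oxtr in 6 and Ednrb in 5. F2r also kept it under the other settings, while Adra1a, Oxtr and Ednrb lost it with normexp background correction. Oxtr and Ednrb lost it with slide as a block, Oxtr with detection asked on all 11 arrays and Ednrb with the replicate block. The count for this list was 1 with normexp background correction, and 2 with slide as a block, without nitrate mouse 5 or without control mouse 3. Of 8 detected Gs coupled receptors 1 was called, Adrb3, the beta 3 adrenergic receptor typical of fat cells, at -0.80 (SE 0.21, adjusted P value 0.167, limma) without overlap between groups. Of 9 detected Gi coupled receptors 6 were called. The alpha 2 adrenergic receptors Adra2a and Adra2c differed by 0.53 and 0.41 and the UDP-glucose receptor P2ry14 by 0.44. The prostaglandin E receptor Ptger3 differed by -0.87, the adenosine receptor Adora1 by -0.52 and the sphingosine 1-phosphate receptor S1pr1 by -0.29. Of the 11 omissions of a mouse, Adra2c and Ptger3 kept their call in 11, Adora1 in 7, Adra2a in 6, S1pr1 in 5 and P2ry14 in 4. With the replicate block Adra2c, S1pr1 and P2ry14 lost their call, and S1pr1 also lost it with 75th percentile scaling. P2ry14 lost it with normexp background correction, P2ry14 and Adra2a with detection asked on all 11 arrays, and Adra2a with no detection filter. Adora1 and Ptger3 kept it under all of these settings. For the Gi coupled list the count was 3 with the replicate block, 2 without nitrate mouse 2, 3 without nitrate mouse 1, 4 or 5, and 4 without control mouse 3, 5 or 6 or with detection asked on all 11 arrays.

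Over the 12 pathway lists, 96 of 142 genes on the array were detected and 15 were called, 7 higher and 8 lower, beside 8.89% of all detected gene names, of which 4.27% were higher and 4.62% lower. The median difference of the 96 was 0.05, beside 0.02 over all names. The groups did not overlap in 6 of the 96 (6.25%), beside 2.94% of all names. Of the 15 called genes, 12 kept their direction on all 3 slides, but they were called on these same mice, so this is not independent evidence. A further 3 genes, uncalled by their brightest probe, had another detected probe that was called: Rgs12 (0.46, against 0.11 for the brightest), Prkar1b (-0.38, against -0.02) and Vipr2 (-0.81, against 0.23). The total was 10 with normexp background correction, 10 without nitrate mouse 1 and 8 without nitrate mouse 2, and 7 of the 15 stayed called with each mouse left out in turn. None was below 0.05 after adjustment, beside 0.00547% of all names. The smallest adjusted P value, 0.118, was that of Adcy7.

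**Figure D5:**
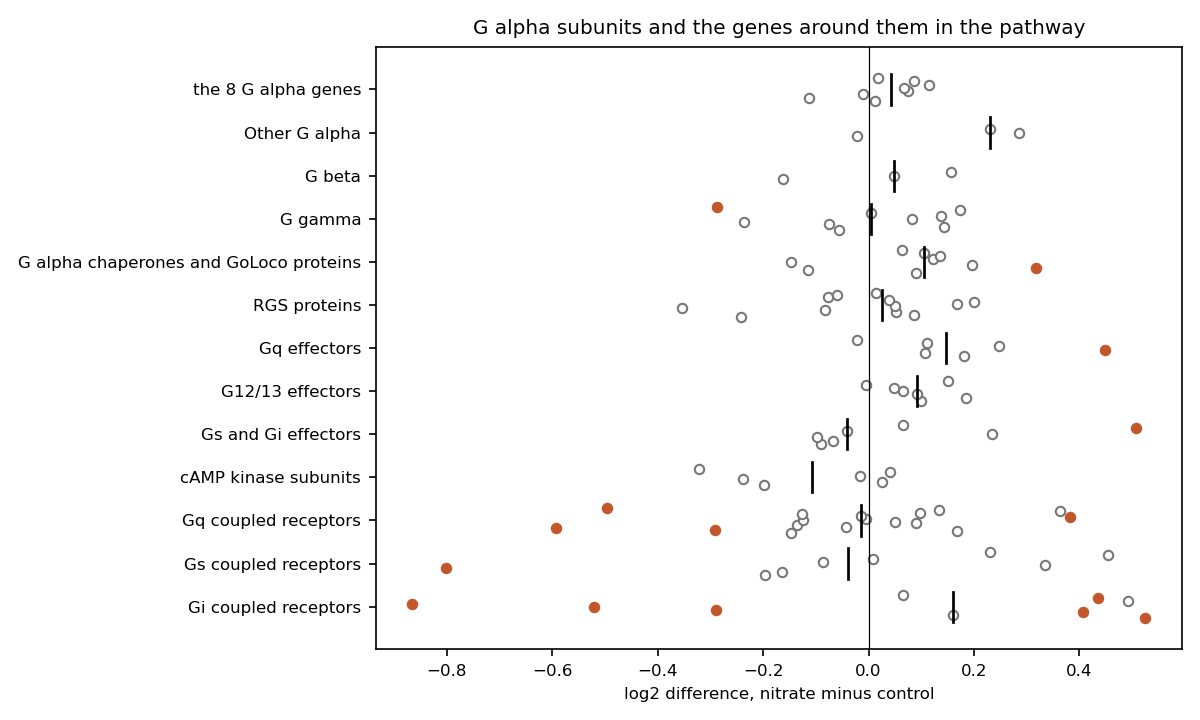
Difference in log2 signal, nitrate minus control, for each detected gene of the 8 G alpha genes and of the 12 pathway lists, with filled orange points for called genes and a bar at each median. The G alpha differences, by the brightest detected probe of each gene, are at most 0.11 in size, and the widest scatter is among the receptors.

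Markers of the aortic wall were present: all 8 smooth muscle and all 8 endothelial markers were detected, with 1 smooth muscle marker (Lmod1, 0.31) and no endothelial marker called by its brightest probe, although a second probe of Kdr was called at -0.57, against -0.10 for the brightest. All 10 adipocyte markers were lower in nitrate and 6 were called, beside 4.62% of all detected names called lower and 8312 of 18294 below 0, with a median difference of -0.34 and summed signals of 261355 to 344260 in nitrate and 338620 to 472265 in control mice. Of the 6 brown adipocyte markers 4 were below 0 and 2, Ucp1 and Elovl3, at 0.23, and 1 was called, Cidea at -0.52, with summed signals of 130076 to 310558 against 211475 to 379343. The 7 detected striated muscle markers were all above 0 (median 0.80, 0 called), with summed signals of 15380 to 53122 against 8289 to 37274. Fibroblast and macrophage markers, 6 of each, were all above 0, with 0 called and medians of 0.13 and 0.10, while 7 of the 8 smooth muscle markers were above 0. Of 3 lymphocyte markers 1 was called (Cd79b, -0.81), with summed signals of 602 to 1017 against 671 to 1035, as was 1 of 7 Schwann cell and neuron markers (Mbp, -0.46), of which 5 were above 0, with a median of 0.04 and summed signals of 22879 to 31513 against 21552 to 30139, while 0 of 5 mesothelial markers were detected. The part of these cells in the differences of receptors, effectors and G alpha genes was not tested.

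For 1 gene of each family, the 3 detected genes whose log2 signal was most like it over the 11 arrays were sought by Pearson correlation among 12213 or 12214 gene symbols. Gnai2 was most like Ash1l (r = 0.98), Actn1 (r = 0.98) and Gm5492 (r = 0.96), higher coefficients than for the other genes. Gnaq was most like Daglb (0.90), Arvcf (0.90) and Gpc4 (0.90). Gna13 was most like Ear6 (0.84), Slbp (0.83) and Gm6162 (0.81), and Gnas was most like Gmpr (0.85), Akr1b10 (0.84) and Cpn2 (0.84). The points of each correlation share arrays, slides and normalization, and none of these 12 genes was called.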

How the data were processed

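Total RNA of descending aorta was labelled with Cy3 and hybridised to Agilent arrays. The authors deposited the scanner output of each array from Feature Extraction 10.7.1.1, with background-corrected processed intensity and flags for each spot, annotated on mm9. The authors also deposited a log2 table, which held their quantile-normalized values centred by probe and was used as an alternative. No column of the files lacked a sample.

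From the processed intensities, control spots were removed, values under 1 were set to 1, log2 was taken, flagged spots (at most 186 of 59305 per array) were dropped, repeated spots were averaged by probe and arrays were quantile normalized. No G alpha probe had a missing value. Arrays correlated at 0.982 to 0.995. The 75th percentile of the signal was 213 to 282 in control and 216 to 289 in nitrate arrays, and the number of arrays limits the precision. Groups were compared with limma 3.58.1 in R 4.3.3 with no covariate, over the detected probes, or over all probes for probes outside the detection rule. Single probes were also compared by exact permutation of the 11 mice. The thresholds follow the study's methods. A gene stood by its brightest detected probe. Named were all probes of the 10 genes, pathway genes called by these thresholds, and the 3 most similar genes for each of 4 members. Marker genes, uncalled pathway genes and other alpha and beta subunits named with values were chosen after their values were seen. The members, pathway lists and marker lists were chosen with earlier results of these data known, so no list was tested. The fit was tested on simulated data. Alternatives were normexp background correction, 75th percentile scaling, an offset of 16, the deposited table, other detection rules, flagged spots kept, a robust trended prior, slide or replicate as a block, and leaving out each mouse.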

Additional observations from a re-analysis of the deposited data

Results flagged for a closer look

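Gna11 in nitrate mouse 4 was the lowest of its group at 10.88, with the nearest value at 11.03, and the gap took 0.731 of the group's range, above the critical value of Dixon's test. It was the only 1 among 32 groups of member probes tested, where 1.6 would be flagged by chance at 1 in 20. Leaving out each mouse in turn gave Gna11 differences from -0.017 to 0.049.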

How the results depend on the processing

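None of the 8 detected genes was called by its brightest probe under any of the 23 settings tried. The number of the 10 genes called was 1, for Gna14, and 0 with normexp background correction or with the replicate block (Gna14 0.53), and 0 to 1 on leaving out a mouse. All detected probes called numbered 2128, against 3224 with no detection filter and 1218 with normexp (436 higher and 782 lower, against 982 and 1146), and 1596 to 2424 on leaving out a mouse. Same-numbered mice were not treated as pairs, since their deviations correlated at -0.14 to 0.18, although 3 of the 5 pairs shared a slide. The replicate block called 2433 probes. Differences near 0 changed sign. The 3′ Gna13 probe gave 0.00089 and the 3′ Gnas probe -0.0031 with 75th percentile scaling, and the Gnas Ensembl probe gave -0.030 with normexp and -0.0068 with an offset of 16. Leaving out a mouse gave -0.017 to 0.049 for Gna11, -0.027 to 0.0098 for the 3′ Gna13 probe, -0.011 to 0.15 for Gnai2, -0.073 to 0.023 for Gnao1 variant B, -0.030 to 0.070 for the 3′ Gnas probe and -0.19 to 0.16 for the Gnas Ensembl probe. The causes were not tested. The dim probes of Gna14, Gna13 and Gnas limit what their values can show.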
